A study of Mus musculus with 6 samples.

Results

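Cholesterol and fatty acids are made in the cytosol and endoplasmic reticulum from acetyl-CoA. From a list of 32 symbols, which covers enzymes of these pathways and their regulators, rows were taken from expression tables of whole kidney, out of 23282 rows, and each symbol was found on 1 row. The libraries came from 3 C57BL/6 (B6) mice and 3 BALB/c mice, both common inbred strains, at 1 library each. The labels give no treatment, genotype, age or sex, and beyond the strain name the groups share all that is stated. RNA was read with a Lexogen QuantSeq kit, which captures the 3′ ends of polyadenylated transcripts, so splice forms that share an end are read together. Values are CPM, reads per gene scaled by library size, and differences are B6 minus BALB/c on the log2(CPM + 1) scale. This scale understates changes at low levels.

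SREBP transcription factors switch these genes on. They are held in the endoplasmic reticulum with the escort protein SCAP and the INSIG proteins when sterols are plentiful, and are cut and released to the nucleus when sterols are scarce. SREBP-2, encoded by Srebf2, acts mainly on cholesterol synthesis, and the SREBP-1 forms of Srebf1 act mainly on fatty acid synthesis. In the kidney, tubule cells use fatty acids chiefly as fuel, and synthesis also supplies their membranes.

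The libraries held between 8310798 and 10416332 reads, recovered from the deposited values. All 32 genes lay above the filter in each of the 6 libraries, and the lowest value rested on 10 reads. Marker genes of nephron segments had summed levels of 7147 to 8757 CPM in B6 kidneys and 7096 to 7332 CPM in BALB/c. Of adrenal cortex markers, Cyp11b1, Cyp11b2, Cyp21a1, Mc2r and Nr5a1 were at 0 in every library, and the list summed to 2.52 to 4.04 CPM in B6 kidneys and 1.84 to 6.25 CPM in BALB/c. Of Y-linked genes, Eif2s3y, Kdm5d and Uty were at 0 everywhere and Ddx3y reached at most 0.774 CPM, in BALB/c replicate 1. Xist, the X-inactivation RNA, had 123.9, 104.3 and 164.4 CPM in B6 against 189.9, 192.9 and 188.4 CPM in BALB/c, lower in B6 (-0.56, limma adjusted p = 0.00444). Summed erythroid markers were 4553 to 5575 CPM in B6 against 2888 to 5280 CPM in BALB/c, and hepatocyte markers 133.8 to 147.1 CPM in B6 against 90.2 to 134.5 CPM in BALB/c. Leukocyte markers summed to 64.8 to 86.9 CPM in B6 against 114.6 to 150.2 CPM in BALB/c, mostly from Csf1r, all of whose 3′ end words also lie in Hmgxb3. Of 3 tested leukocyte markers 1 was called by limma, Csf1r, lower in B6. The general leukocyte gene Ptprc (-0.40, limma adjusted p = 0.450) and the macrophage gene Cd68 (-0.12, limma adjusted p = 0.911) were not called. The part of these markers in the results below was not tested.

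B6 replicate 2 stood apart in some transcripts of fat, the tissue that surrounds the kidney. Adipoq, which encodes the adipocyte hormone adiponectin, had 0.110, 3.33 and 0 CPM in B6 replicates 1 to 3, against 0.0966, 0.236 and 0.1004 CPM in BALB/c. Cfd, the adipocyte protease adipsin, had 0.880, 18.3 and 0 CPM in B6 against 6.87, 1.18 and 2.81 CPM in BALB/c. Cidec, another adipocyte marker, was instead highest in BALB/c replicate 1 (4.07 CPM) and was at 0 in B6 replicate 2. The 8 adipocyte markers together reached 108.9 to 191.3 CPM in B6 kidneys and 172.2 to 207.7 CPM in BALB/c, most of it from Fabp4, which endothelial cells also express. Fabp4 had 163.4 CPM in B6 replicate 2, below every BALB/c library (169.0 to 197.5 CPM). Without Fabp4 the other 7 summed to 1.87, 27.9 and 0 CPM in B6 kidneys and 11.1, 2.12 and 3.21 CPM in BALB/c. Among the 32 genes, calls that end or appear without this library are given below with their values without it. The other differences of these genes that it moves stand together after the gene groups.

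Of the 32 genes, 9 (28.1%) passed the test between the strains, compared with 9.09% of all 13317 genes tested (limma, Benjamini-Hochberg adjusted p under 0.05). Higher in B6 were 8 genes, where 4.93% of all genes were: Srebf1, the sterol-pathway genes Acat2, Hmgcs1, Mvd, Sqle and Msmo1, and the lipogenic genes Acly and Scd2. Lower in B6 was 1 gene, Scd1, where 4.17% of all genes were. The same shares of all genes stand beside the counts by group below. The median difference was 0.19 over the 32 genes and -0.00233 over all genes tested, and 21 of the 32 were positive. The libraries of the strains did not overlap in 15 of the 32. Of these, B6 was higher in 11, where 12.9% of all genes were, and lower in 4, where 12.5% were.

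The number of calls depended on how the variance was estimated and on single libraries. With a variance prior that did not follow the expression level, 1 of the 32 was called, Sqle, when 3.70% of all genes were. Leaving out B6 replicate 1 left 5 calls, when 6.05% of all genes were called, and leaving out B6 replicate 2 left 8, when 8.55% were. In whole tissue, fewer cells of a type and less RNA per cell cannot be told apart. The processing notes name mm10, a B6 genome, for both strains, and loss of BALB/c reads was not tested.

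**Figure D1:**
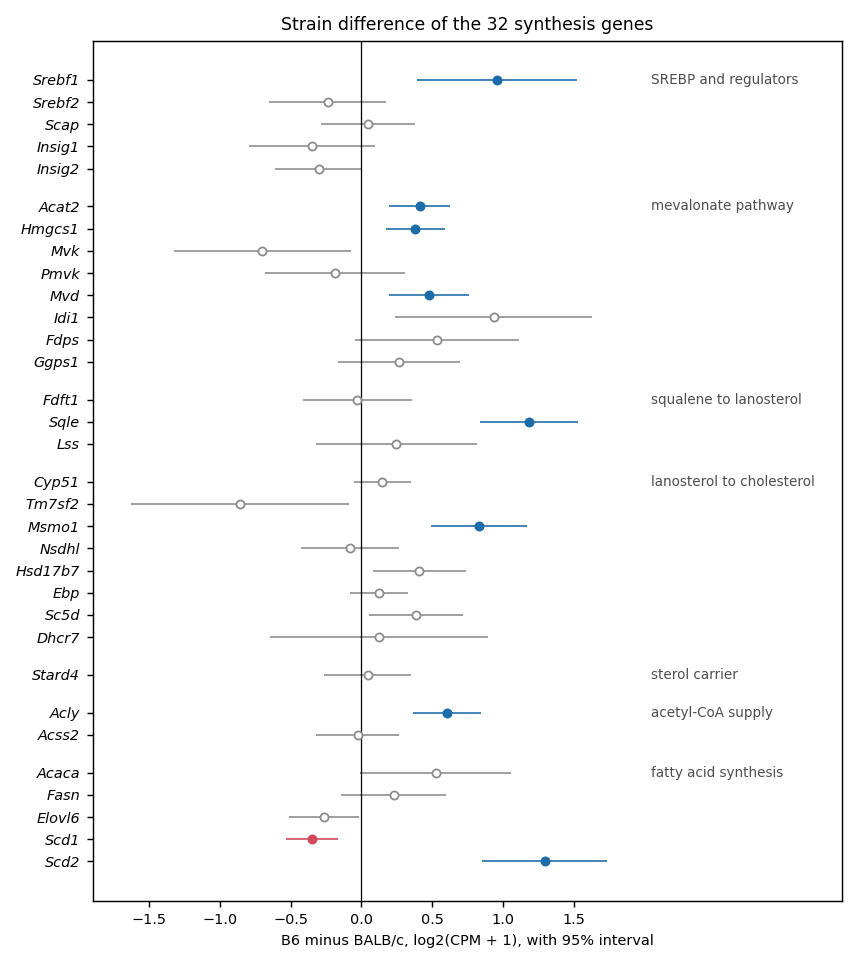
Each point is the difference of 1 gene, B6 minus BALB/c, in log2(CPM + 1), with its 95% interval from limma, in groups by role. Filled points passed the test: 8 lie to the right of 0, from 0.38 for Hmgcs1 to 1.30 for Scd2, and Scd1 lies to the left at -0.35.

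Among the transcription factors and their regulators, Srebf1 rose and the other 4 genes did not pass the test. Srebf1 (chromosome 11, 60199089 to 60222581, GRCm38) had 18.4, 32.8 and 15.0 CPM in B6 replicates 1 to 3, against 6.97, 11.1 and 13.8 CPM in BALB/c. All B6 libraries lay above all BALB/c libraries, but B6 replicate 3 was close to BALB/c replicate 3. The difference was 0.96 ± 0.27 (SE, n = 3 each, limma adjusted p = 0.0265). B6 replicate 2, the library highest for Adipoq and Cfd, was also the highest for Srebf1. Without it the difference was 0.65 (limma adjusted p = 0.187). The call also ended when B6 replicate 1, BALB/c replicate 1 or BALB/c replicate 2 was dropped (adjusted p at most 0.157 in limma), without the filter (0.123) and in limma-voom (0.0502). The end of Srebf1 lies over exons of Rai1, which share 23.5% of its 3′ end words, stretches of 50 bases matched on either strand. Rai1 itself had a difference of -0.00133 (limma adjusted p = 0.999).

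Srebf2 had 14.3, 16.0 and 15.8 CPM in B6, against 18.4, 17.1 and 19.5 CPM in BALB/c. These groups did not overlap, and B6 was lower by a small margin, with a difference of -0.24 ± 0.20 (SE, limma adjusted p = 0.546). Insig2, a sterol sensor that retains the SREBP-SCAP complex, had 37.9, 31.6 and 31.6 CPM in B6 kidneys and 39.6, 45.05 and 40.4 CPM in BALB/c. It also did not overlap and was not called (-0.30 ± 0.15, SE, limma adjusted p = 0.243). Its relative Insig1, itself an SREBP target, ranged over 14.8 to 27.6 CPM in B6 kidneys and 20.3 to 30.3 CPM in BALB/c, with a difference of -0.35 (limma adjusted p = 0.376). Scap had a difference of 0.05 with a 95% interval of -0.28 to 0.38.

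The mevalonate pathway turns acetyl-CoA into the isoprenoid units farnesyl and geranylgeranyl diphosphate. Of its 8 genes, 3 rose and 0 fell (limma). Acat2, the cytosolic thiolase of the entry step (chromosome 17, 12942890 to 12960747), had 146.7, 132.1 and 155.3 CPM in B6 against 106.0, 108.1 and 110.8 CPM in BALB/c. The lowest B6 library lay above the highest BALB/c library, and the difference was 0.41 ± 0.10 (SE, limma adjusted p = 0.0123). Hmgcs1, the HMG-CoA synthase of the cytosol (chromosome 13, 119690379 to 119708260), had 599.9, 569.5 and 654 CPM in B6 against 529, 476 and 400.4 CPM in BALB/c. Its difference was 0.38 ± 0.10 (SE, limma adjusted p = 0.0158). BALB/c replicate 3 was the lowest library for Hmgcs1 and the highest BALB/c library for Acat2. Mvd, the decarboxylase that yields isopentenyl diphosphate (chromosome 8, 122433601 to 122443422), had 53.2, 63.6 and 57.1 CPM in B6 against 40.9, 37.6 and 45.2 CPM in BALB/c. The strains were apart in all 6 libraries, by 0.48 ± 0.14 (SE, limma adjusted p = 0.0273).

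Each of these 3 calls was sensitive to single libraries. Acat2 was not called when B6 replicate 1, B6 replicate 3 or BALB/c replicate 1 was dropped (adjusted p at most 0.0626 in limma). Hmgcs1 was not called when B6 replicate 1, B6 replicate 3 or BALB/c replicate 3 was dropped (at most 0.117), or without the filter (0.0767). Mvd was not called without B6 replicate 2, the library highest for Adipoq and Cfd (adjusted p = 0.104 in limma). Its call also ended when B6 replicate 3, BALB/c replicate 1 or BALB/c replicate 2 was dropped (at most 0.117), and in limma-voom (0.0502).

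The other mevalonate genes lay on either side of 0. Idi1, the isomerase of isopentenyl diphosphate, had 8.81, 10.3 and 4.82 CPM in B6 against 2.23, 4.72 and 4.01 CPM in BALB/c. It did not overlap, but B6 replicate 3 and BALB/c replicate 2 were almost level (0.93 ± 0.34, SE, limma adjusted p = 0.0884). Without B6 replicate 3 it was called (limma adjusted p = 0.0374). Mvk, the mevalonate kinase, had a difference of the opposite sign, with 9.03, 12.8 and 4.04 CPM in B6 kidneys and 12.0, 13.1 and 15.3 CPM in BALB/c (-0.70 ± 0.30, SE, limma adjusted p = 0.1702). Without B6 replicate 2 it was -1.02 and was called (limma adjusted p = 0.0389). Fdps, the farnesyl diphosphate synthase, had 0.53, and 70.6% of its 3′ end words also lie in other genes, Ggps1, its geranylgeranyl counterpart, had 0.27, and Pmvk, phosphomevalonate kinase, had -0.19, none of them called.

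**Figure D2:**
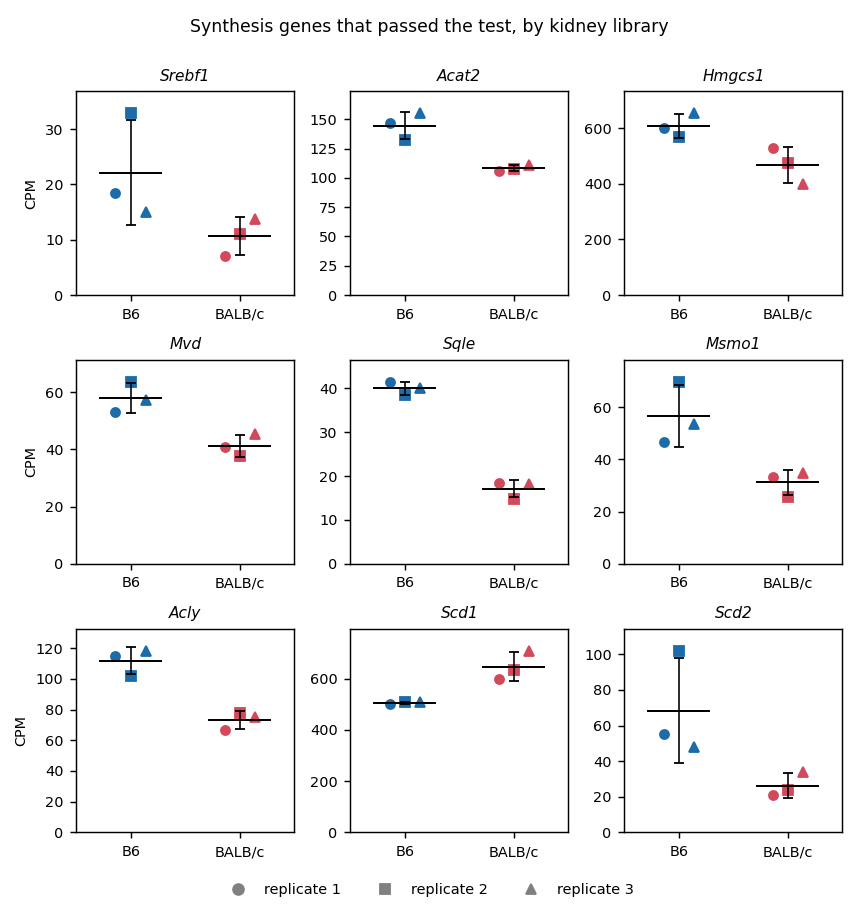
CPM of the 9 genes that passed the test in each library, B6 left and BALB/c right, with marker shape for the replicate; lines are means and bars the SD over 3 libraries. No panel has overlap between the strains, and B6 replicate 2 is far above the other B6 libraries for Srebf1 (32.8 CPM) and Scd2 (102.1 CPM).

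The promoters of Hmgcs1, Mvd and Msmo1 are shown because these sterol genes, Msmo1 as described below, rose in B6 and have a RefSeq entry with such motifs. SREBPs bind sterol regulatory elements, commonly beside NF-Y, which binds CCAAT boxes. Each run is the 250 bases before the RefSeq gene start on GRCm38.p6, with capitals for the sterol regulatory element TCACNCCAC and for the CCAAT box ATTGG, on either strand. The stretches are chr13:119690101-119690350 on the plus strand for Hmgcs1, chr8:122443423-122443672 on the minus strand for Mvd, and chr8:64733579-64733828 on the minus strand for Msmo1.
Hmgcs1: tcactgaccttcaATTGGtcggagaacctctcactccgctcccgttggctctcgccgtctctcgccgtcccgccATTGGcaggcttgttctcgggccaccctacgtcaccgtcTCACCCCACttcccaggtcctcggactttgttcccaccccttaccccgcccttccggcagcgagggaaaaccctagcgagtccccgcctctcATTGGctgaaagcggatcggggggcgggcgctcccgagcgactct
Mvd: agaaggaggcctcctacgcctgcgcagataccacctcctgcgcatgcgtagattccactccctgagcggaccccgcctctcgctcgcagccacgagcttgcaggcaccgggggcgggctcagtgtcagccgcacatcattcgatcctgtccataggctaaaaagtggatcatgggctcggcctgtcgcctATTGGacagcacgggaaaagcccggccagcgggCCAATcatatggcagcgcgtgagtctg
Msmo1: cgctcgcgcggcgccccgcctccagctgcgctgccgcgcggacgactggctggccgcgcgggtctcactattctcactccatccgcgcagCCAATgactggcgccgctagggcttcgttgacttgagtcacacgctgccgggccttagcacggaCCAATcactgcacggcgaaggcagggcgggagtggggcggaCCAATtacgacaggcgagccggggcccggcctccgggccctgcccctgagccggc
In Hmgcs1 the sterol regulatory element covers positions -137 to -129 and 3 CCAAT boxes lie around it. Mvd has 2 CCAAT boxes and Msmo1 has 3.

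Of the 32 genes, 26 were matched to the RefSeq promoter table used here, and Sqle, Scd1, Scd2, Fdps, Fdft1 and Stard4 were not. The letters TCACNCCAC were found before 1 of the 26, Hmgcs1, and before 1.22% of all 27025 genes. ATTGG was found before 21 of the 26 (80.8%) and before 37.5% of all genes. It was present before 4 of the 6 genes that passed the test and 17 of the 20 that did not. The E-box CACGTG was found before 5 of the 26, Insig1, Scap, Dhcr7, Sc5d and Hsd17b7, none of which was called, and before 6.86% of all genes. No match of 1 motif overlapped a match of another. The matches are letters within 250 bases and do not show binding.

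**Figure D3:**
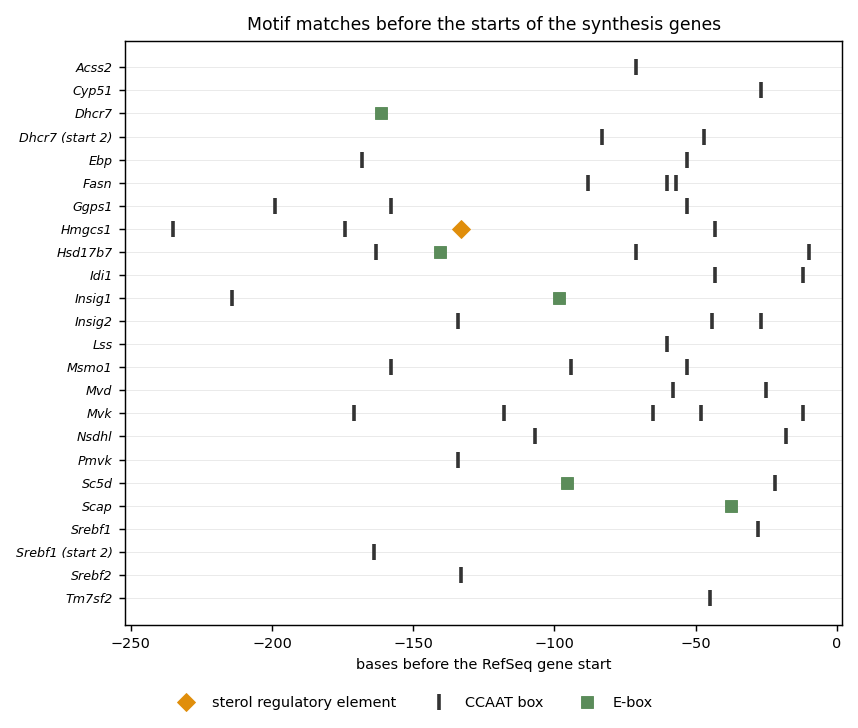
Positions of the motif letters in the 250 bases before RefSeq gene starts, with 1 row per start that has a match. CCAAT boxes occur in most rows, 5 E-boxes are spread over 5 genes, and Hmgcs1 alone has the sterol regulatory element.

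On the way from farnesyl diphosphate to lanosterol, 1 of 3 genes changed, and it had the smallest p of the 32. Sqle encodes squalene epoxidase, the first oxygen-requiring and a rate-limiting step of sterol synthesis (chromosome 15, 59315077 to 59331192). It had 41.5, 38.6 and 40.0 CPM in B6 replicates 1 to 3, against 18.4, 14.9 and 18.1 CPM in BALB/c. The B6 libraries lay within 2.87 CPM of each other and far above those of BALB/c. The means were 40.0 ± 1.44 CPM in B6 kidneys and 17.1 ± 1.97 CPM in BALB/c (SD, n = 3 each), a ratio of 2.34. The log2 difference was 1.18 ± 0.17 (SE, limma adjusted p = 3.35e-05), between 1.03 and 1.24 under all 18 alternatives, and it passed the test in each of them (largest limma adjusted p = 0.0299). Fdft1, squalene synthase, had 20.3 to 21.8 CPM in B6 kidneys and 17.9 to 23.6 CPM in BALB/c, a difference of -0.03, but all of its 3′ end words lie in Ctsb. Lss, lanosterol synthase, had 7.85 to 13.2 CPM in B6 kidneys and 6.25 to 10.6 CPM in BALB/c, a difference of 0.25 (limma adjusted p = 0.681). Of the 3′ end words of Lss, 21.6% also lie in 4930483K19Rik.

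From lanosterol to cholesterol, 1 of 8 genes changed, beside 9.09% of all genes. Msmo1, the methylsterol monooxygenase that starts removal of the paired methyl groups (chromosome 8, 64718139 to 64733792), had 46.7, 69.7 and 53.6 CPM in B6 against 33.1, 25.7 and 34.7 CPM in BALB/c. All B6 libraries were higher, by 0.83 ± 0.16 (SE, limma adjusted p = 0.00137), with B6 replicate 2 again the highest. Without that library the difference was 0.68 and still called (limma adjusted p = 0.0118).

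Hsd17b7, a sterol ketoreductase, and Sc5d, the sterol desaturase near the end of the pathway, did not overlap between the strains but missed the threshold. Hsd17b7 had 35.0, 33.2 and 32.5 CPM in B6 kidneys and 25.2, 26.8 and 23.3 CPM in BALB/c (0.41 ± 0.16, SE, limma adjusted p = 0.121). Sc5d had 35.2, 34.0 and 36.3 CPM in B6 kidneys and 25.0, 31.2 and 24.5 CPM in BALB/c (0.38 ± 0.16, SE, limma adjusted p = 0.157). For both genes every B6 library was above every BALB/c library. Tm7sf2, a sterol reductase, was low, with 4.18, 2.92 and 1.121 CPM in B6 kidneys and 7.84, 4.48 and 4.31 CPM in BALB/c (-0.86 ± 0.37, SE, limma adjusted p = 0.172). Its 2 nearest libraries, B6 replicate 1 and BALB/c replicate 3, were almost equal.

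The remaining genes of this stretch overlapped between the strains. Cyp51, the lanosterol demethylase, had 484, 375 and 440 CPM in B6 kidneys and 385, 378 and 403 CPM in BALB/c (0.15, 95% interval -0.05 to 0.35), and 47.1% of its 3′ end words lie in Akap9. Ebp, the sterol isomerase, had 244, 261 and 299.5 CPM in B6 kidneys and 241, 234 and 263 CPM in BALB/c (0.12, 95% interval -0.08 to 0.33). Both intervals include 0. Nsdhl, a sterol dehydrogenase, had -0.08, and Dhcr7, the reductase of the last step, had 0.12 with an interval of -0.65 to 0.89. Stard4, a carrier of sterols between membranes, had 36.3 to 42.3 CPM in B6 kidneys and 32.9 to 40.5 CPM in BALB/c, a difference of 0.05.

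Cytosolic acetyl-CoA, the shared starting material, comes from citrate through ATP citrate lyase and from acetate. Acly, which encodes ATP citrate lyase (chromosome 11, 100476353 to 100528000), had 115.2, 102.0 and 118.4 CPM in B6, against 66.8, 78.1 and 74.95 CPM in BALB/c. The strains were well apart, by 0.60 ± 0.11 (SE, limma adjusted p = 0.00100), and here B6 replicate 2 was the lowest B6 library. Acss2, which activates acetate, had 54.7 to 63.0 CPM in B6 kidneys and 48.5 to 70.9 CPM in BALB/c, a difference of -0.03 with an interval of -0.32 to 0.26.

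Fatty acid synthesis runs through acetyl-CoA carboxylase and fatty acid synthase, and the products are lengthened by ELOVL6 and desaturated by the SCD enzymes. Of these 5 genes 1 rose and 1 fell, and they were the paired desaturases on chromosome 19. Scd2 (44293674 to 44306864) had 55.0, 102.1 and 48.2 CPM in B6, against 21.2, 23.6 and 34.2 CPM in BALB/c. B6 was higher in all libraries and by far in replicate 2, with a difference of 1.30 ± 0.21 (SE, limma adjusted p = 2.11e-04). Without B6 replicate 2 it was 0.97 and still called (limma adjusted p = 0.00103).

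Scd1, the form with known roles in liver and fat (44394455 to 44407879), had 503, 509 and 508 CPM in B6 against 597, 635 and 710 CPM in BALB/c. The B6 libraries were nearly equal and all below BALB/c, with a difference of -0.35 ± 0.09 (SE, limma adjusted p = 0.0127). Dropping B6 replicate 1 or BALB/c replicate 3 ended the call (adjusted p at most 0.0856 in limma). The ratio of Scd2 to Scd1 was 0.109, 0.201 and 0.0949 in B6 and 0.0355, 0.0372 and 0.0481 in BALB/c. The log2 ratio was higher in B6 by 1.68. This is a description with no test, since the pair was chosen for its opposite calls, which fix the separation of the ratio.

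The central enzymes were not called. Acaca, the carboxylase, had 11.8, 20.7 and 13.3 CPM in B6 kidneys and 12.5, 10.6 and 7.51 CPM in BALB/c (0.52, limma adjusted p = 0.242). Fasn, the synthase, had 57.4, 68.2 and 37.0 CPM in B6 kidneys and 38.4, 42.6 and 54.8 CPM in BALB/c (0.23, limma adjusted p = 0.523). In both genes B6 replicate 2 was the highest of all 6 libraries. Elovl6 had 81.5 to 94.7 CPM in B6 kidneys and 90.5 to 120.9 CPM in BALB/c (-0.27, limma adjusted p = 0.199).

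Within B6, replicate 2 stood out for many of these genes as well. Of the B6 libraries, it was the highest for 18 of the 32 genes, where it was the highest for 33.7% of all genes tested. Its excess over the mean of the other B6 libraries was largest for the sterol gene Dhcr7, at 1.11 on the log2 scale, followed by 0.97 for Scd2, 0.96 for Mvk, 0.94 for Srebf1, 0.68 for Acaca, 0.68 for Insig1, 0.58 for Idi1, 0.56 for Fdps and 0.55 for Fasn. Genes of both sterol and fatty acid synthesis were thus among the highest. It was -0.08 for Sqle, -0.14 for Hmgcs1, -0.19 for Acat2 and -0.19 for Acly. Without B6 replicate 2 the differences of 12 uncalled genes moved by over 1.5 times, and none of them was called (smallest limma adjusted p = 0.0943, for Cyp51). Among the fatty acid genes, Fasn then had 0.0425 and Acaca 0.30. Among the sterol enzymes, Fdps had 0.35, Lss 0.066, Cyp51 0.25, Pmvk -0.0525, Fdft1 -0.0613, Nsdhl -0.25 and Dhcr7 -0.25. Insig1 had -0.58, Scap -0.0917 and Stard4 0.0958. Thrsp, a lipogenic gene of fat and liver named after its values were seen, had 4.95, 16.5 and 4.04 CPM in B6 kidneys and 2.61, 8.49 and 4.41 CPM in BALB/c. BALB/c replicate 3 was the highest BALB/c library for 19 of the 32 genes, against 33.9% of all genes. The part of fat transcripts in these differences was not tested.

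**Figure D4:**
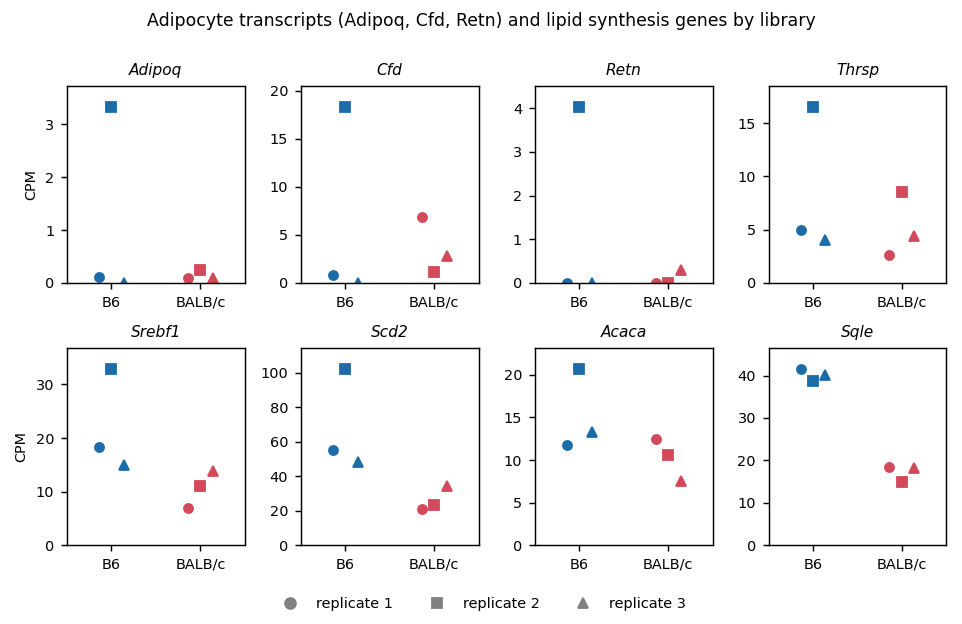
CPM by library of the adipocyte transcripts Adipoq, Cfd and Retn and of selected lipid synthesis genes, B6 left and BALB/c right, with marker shape for the replicate. Of the adipocyte markers not shown, Plin1, Lep and Ucp1 were also highest in B6 replicate 2. Cidec was at 0 there and highest in BALB/c replicate 1 (4.07 CPM), and Fabp4 (163.4 CPM there) was below every BALB/c library. The point of B6 replicate 2 is the highest point for Adipoq (3.33 CPM), Cfd (18.3), Thrsp (16.5), Srebf1 (32.8), Scd2 (102.1) and Acaca (20.7), but is the lowest B6 point for Sqle (38.6).

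Genes of the same pathways outside the 32 were called in both directions. Over 7 lists with 109 tested genes, 9 rose and 10 fell in B6 (17.4%, beside 9.09% of all genes), with a median difference of 0.02. Of 17 genes that regulate sterols, 2 rose and 0 fell, with a median of 0.06. Erlin1, from this list, had 31.6, 33.8 and 27.5 CPM in B6 kidneys and 12.9, 14.4 and 14.4 CPM in BALB/c. The strains were far apart, by 1.097 ± 0.18 (SE, limma adjusted p = 2.73e-04).

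Of 10 other sterol synthesis genes, 1 rose and 1 fell, with a median of -0.02. Ebpl, a relative of Ebp without known isomerase activity, had 15.0, 17.1 and 20.1 CPM in B6 kidneys and 29.4, 30.4 and 34.3 CPM in BALB/c, lower in B6 in all libraries by 0.82 on the log2 scale (a difference of -0.82 ± 0.18, SE, limma adjusted p = 0.00395). Of 12 genes that use isoprenoids 0 were called by limma, and 3 had an unadjusted p under 0.05, as did 21.3% of all genes. Their median was 0.03. The smallest p were those of Dhdds, for dolichol synthesis (0.52, limma adjusted p = 0.0530), and Coq2, for ubiquinone synthesis (0.44, limma adjusted p = 0.117).

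Of 19 genes of cholesterol transport, storage and breakdown, 1 rose and 2 fell, with a median of 0.02. Soat1, which makes cholesteryl esters, had 29.3, 24.4 and 19.9 CPM in B6 against 39.0, 54.1 and 47.5 CPM in BALB/c, lower in B6 throughout (-0.91 ± 0.17, SE, limma adjusted p = 8.80e-04). Lipa, the lysosomal esterase, had 206, 178 and 227 CPM in B6 against 321, 286 and 284 CPM in BALB/c (-0.55 ± 0.10, SE, limma adjusted p = 7.85e-04). Nceh1, a neutral ester hydrolase, had 522, 448 and 588 CPM in B6 against 399, 392 and 341 CPM in BALB/c (0.46 ± 0.10, SE, limma adjusted p = 0.00460). The strains did not overlap in any of the 3.

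Of 23 other fatty acid genes, 2 rose and 2 fell, with a median of 0.02. Me1, malic enzyme, a source of NADPH for synthesis, had 226, 180 and 198 CPM in B6 kidneys and 277, 290 and 301 CPM in BALB/c (-0.53, limma adjusted p = 8.60e-04). Mlxipl, the glucose-sensing factor ChREBP, had 18.9, 16.7 and 20.6 CPM in B6 kidneys and 32.3, 29.4 and 32.5 CPM in BALB/c (-0.72, limma adjusted p = 0.00875). Both were lower in every B6 library. Hacd2, an elongation dehydratase, rose by 0.74 (limma adjusted p = 0.00655), a call lost without BALB/c replicate 2 (0.0570) and without the filter (0.0598). Oxsm, of mitochondrial fatty acid synthesis, rose by 0.92 (0.0486) with overlapping libraries and lost its call in 12 of 18 alternatives. Of 13 glycerolipid genes 1 fell, the triglyceride lipase gene Pnpla2 (-0.44, limma adjusted p = 0.0487, also lost in 12 alternatives), with a median of -0.26.

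**Figure D5:**
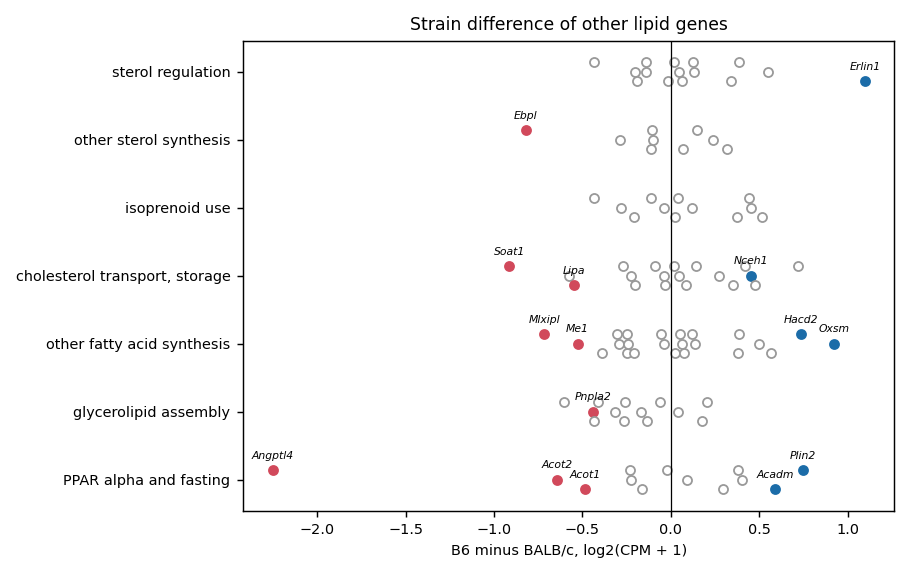
Differences, B6 minus BALB/c in log2(CPM + 1), of tested genes of the 7 other lipid lists, 1 point per gene, filled and named where the gene passed the test. Calls lie on both sides of 0 in the cholesterol transport, fatty acid and fasting lists, and the lowest point is Angptl4 (-2.25).

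Genes that PPAR alpha drives in fasting, when fatty acids are burned rather than made, moved in both directions. Of 15 tested, 3 rose and 4 fell, with a median of -0.02. Angptl4, a lipoprotein lipase inhibitor, had 4.18, 4.03 and 3.81 CPM in B6 against 35.0, 26.1 and 12.9 CPM in BALB/c (-2.25 ± 0.30, SE, limma adjusted p = 1.15e-05). All B6 libraries were below all BALB/c libraries, and BALB/c replicate 3 was the lowest of BALB/c. The thioesterase genes Acot2 and Acot1 fell by 0.64 and 0.49, while the mitochondrial dehydrogenase gene Acadm rose by 0.59 and the lipid droplet gene Plin2, outside the naming rule, by 0.75. Acot1 was not called when B6 replicate 3 or BALB/c replicate 1 was dropped (adjusted p at most 0.0794 in limma), nor was Plin2 without B6 replicate 3 or BALB/c replicate 3 (at most 0.0715).

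Clock genes, which set daily rhythms that lipid synthesis also follows, differed too. Of 11 tested, 3 rose and 2 fell, where 4.93% and 4.17% of all genes did. They were named after their values were seen. Clock by 0.61, Per2 by 1.17 and Cry1 by 1.05 were higher in B6, and Nr1d1 (-1.48) and Nr1d2 (-1.42) were lower. Nr1d1, which encodes the repressor REV-ERB alpha, had 8.36, 11.1 and 6.05 CPM in B6 against 26.9, 20.3 and 28.2 CPM in BALB/c (limma adjusted p = 1.52e-04). Its 3′ end shares 11.8% of its words with Thra. Per2 and Cry1 lost their calls without several single libraries (limma adjusted p up to 0.1404 for Per2 and 0.228 for Cry1). The labels give no time of day or feeding state, and the part of either in the strain differences was not tested.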

How the data were processed

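The submitters' processing notes name Bowtie2, bedtools and mm10; their versions, the annotation and the use of strand are not stated in any source at hand. The deposited values are log2(CPM + 1), 1 per row and library. This unit was read off the numbers themselves: on the linear scale a library sums to between 980188 and 1043599, and 100% of values up to 20 reads are whole reads within 0.1 read. Raw counts had been planned for as well. The deposited log2 values of 13317 genes, those at 1 or more in at least 3 libraries, entered limma 3.58.1 (R 4.3.3) with strain as the only term and a variance prior that followed the level. Tests are two-sided, with Benjamini-Hochberg adjustment over all genes tested and calls under 0.05; intervals are 95%. The fit was checked on simulated data. That libraries come from separate mice rests on the design text alone, so p-values may measure technical spread. Same-strain libraries differed by more than sampling noise, with a chi-square of 7.75 to 16.3 per degree of freedom. Shared 3′ ends were counted as words of 50 bases in the last 300.0 bases of 1 GENCODE M21 transcript per gene. Words were matched on either strand. Reads there cannot be told apart from those of another gene on the same strand. For a gene on the opposite strand this holds only if strand was not used. Positions are those of GENCODE M21 on GRCm38, and promoters those of RefSeq on GRCm38.p6. The members and lists were chosen with earlier results of these data known. Named are all members, the called genes of each other list (at most 6, by p) or else the 2 with the smallest p, and others where marked. Alternatives were other filters, pseudocounts, scalings and variance priors, a replicate block, left-out libraries and limma-voom on recovered reads. Some genes that these lists count are not reported here.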

Additional observations from a re-analysis of the deposited data

How the results depend on the processing

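Of the 9 genes that passed the test, Sqle passed under all 18 alternatives, Msmo1, Acly and Scd2 under all but those without a trend in the variance prior, and none changed direction. Without that trend 493 of all genes, 1 of the 32 and 5 of the other pathway genes were called. With B6 replicate 2 also left out, chosen after seeing the data, these counts were 217, 1 and 1. Leaving out single libraries gave 797 to 1138 calls over all genes, 5 to 8 among the 32 and 15 to 19 among the other pathway genes. The labels do not say whether replicate numbers pair the samples. Correlations of same-numbered deviations were 0.0115, -0.05703 and -0.08442, which cannot settle it. With a replicate block 977 genes and 8 of the 32 were called, Mvd being lost (limma adjusted p = 0.0562). Under left-out libraries, 6 uncalled genes changed sign: Fdft1 lay between -0.14 and 0.0467, Scap between -0.0917 and 0.18, Dhcr7 between -0.25 and 0.65, Stard4 between -0.0515 and 0.10, Nsdhl between -0.25 and 0.045 and Acss2 between -0.18 and 0.0878. So did Thrsp, between -0.0587 and 0.87. With B6 replicate 2 left out and no trend, Scap had -0.0917, Dhcr7 -0.25 and Thrsp -0.0587. The cause of these changes was not tested. Count models named among the alternatives, edgeR and DESeq2, were not run. The deposited values are not counts, and limma-voom on the recovered reads, chosen after seeing the data, took the place of these models. Genes under 20 reads, such as Tm7sf2 in B6 replicate 3, have wide intervals.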
